A study of Mus musculus with 6 samples.

Results

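The cytosolic ribosomal protein genes were taken as the protein-coding genes of the deposited table whose symbol is Rps or Rpl followed by a number, together with Rpsa, Rplp0, Rplp1 and Rplp2, and without the Rps6k kinases and the pseudogenes. This rule uses names only and gave 84 of 54532 genes, 32 of the small subunit (40S) and 52 of the large subunit (60S). Mouse spleen CD8T cells, activated beforehand through CD3 and CD28, were sequenced after a coculture, with 3 samples each in a control and a DB2313 group. In the control group the partner cells had not received DB2313. In the DB2313 group these cells had received DB2313, which inhibits Spi1 (the transcription factor PU.1), at a concentration of 14 nM. The labels call the partner cells DC cells, whereas the methods of the study name peritoneal macrophages elicited with thioglycolate and given IFN-γ at 10 ng/mL for 12 hr. The coculture lasted 24 hr in both groups. Neither the strain nor the age of the mice was stated for these cells, and no source says whether the 3 samples of a group were separate cultures, so p-values measure the spread between these samples, which may be technical.

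A ribosome translates mRNA with its small subunit, which reads the codons, and its large subunit, which joins the amino acids. Each subunit holds ribosomal RNA and a set of proteins that are, with few exceptions, needed in a single copy, so their mRNAs are abundant and are usually regulated together. Most of these mRNAs start with a C and a run of pyrimidines, the 5′ terminal oligopyrimidine tract, through which mTOR and Larp1 control their translation. In T cells, activation through the antigen receptor brings Myc and mTOR activity and a large increase in ribosome production.

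Reads counted on genes ranged from 16611975 to 18596217 per library. Values are given as CPM, the counts per 1000000 counts of the library after TMM scaling, which takes the bulk of genes as unchanged. As an alternative, libraries were scaled to equal totals on the T cell marker list, so that a change there is relative to these markers. A change is the log2 fold change of the DB2313 group over the control group. A gene was called higher or lower when edgeR's quasi-likelihood test, run on 14883 genes, gave a Benjamini-Hochberg adjusted p below 0.05. Markers of cell types were looked at, although the T cell list holds no Cd4 and so cannot check the CD8 label. All 20 T cell genes of a fixed list were detected, among them Cd8a at 121, 114 and 120.4 CPM in the control group and at 183, 163 and 169 CPM in the DB2313 group. The library also held macrophage transcripts. Lyz2, a lysozyme of macrophages and other myeloid cells, stood at 7667, 7591 and 7849 CPM in the control group and at 2102, 2108 and 2042 CPM in the DB2313 group. The 25 macrophage genes together took 1.47% ± 0.017 of control and 0.626% ± 0.00795 of DB2313 libraries (SD, n = 3 each), and the T cell list took 0.373% ± 0.0033 of control and 0.598% ± 0.00279 of DB2313 libraries (SD, n = 3 each). Of the macrophage genes 21 were lower and 4 higher, and all 20 T cell genes were higher. Of 9 neutrophil genes 8 were lower and 1 higher, of 9 tested dendritic cell genes 7 and 1, and of 7 B cell genes 1 and 4. Among all genes tested, 20.8% were higher and 24.6% lower, against which the counts of each marker list are to be read. In the dendritic cell list, Ccr7 averaged 889 CPM in the control and 828 CPM in the DB2313 group, and Fscn1 593 and 517 CPM. Tcf7, the highest gene of the T cell list, averaged 558 CPM in the control and 820 CPM in the DB2313 group. Of 4 erythroid genes 1 was higher and 3 did not pass, and their list took at most 0.000854% of a library. Ribosomal protein mRNAs are not particular to any of these cell types. Fewer cells of a type and less RNA per cell cannot be told apart in such bulk samples, and the part of the cell mixture in the values below was not tested.

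The sequences around the annotated transcription start are shown because the tract that marks these mRNAs lies there. They are from RefSeq (GRCm38.p6), which held 64 of the 84 genes. Each is 30 bases long, 15 before the annotated start and 15 from it on, written 5′ to 3′ on the gene's strand, and capitals mark a run of a C and at least 4 more pyrimidines that begins within 5 bases of the start. The first 6 genes had the lowest and the last 6 the highest fold changes among those with an entry and 10 CPM or more on average in the control group.
Rpl38 (chr11:114668565-114668594, plus strand): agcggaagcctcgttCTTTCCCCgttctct
Rps28 (chr17:33824548-33824577, minus strand): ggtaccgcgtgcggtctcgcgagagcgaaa
Rpl39 (chrX:37085208-37085237, minus strand): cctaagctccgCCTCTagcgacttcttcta
Rps27 (chr3:90213634-90213663, minus strand): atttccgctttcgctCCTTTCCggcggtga
Rpl37a (chr1:72711245-72711274, plus strand): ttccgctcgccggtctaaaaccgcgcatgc
Rpl41 (chr10:128549154-128549183, minus strand): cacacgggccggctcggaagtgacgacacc
Rpl7a (chr2:26910792-26910821, plus strand): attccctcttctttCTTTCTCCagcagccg
Rpl9 (chr5:65391417-65391446, minus strand): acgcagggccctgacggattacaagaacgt
Rps4x (chrX:102189377-102189406, minus strand): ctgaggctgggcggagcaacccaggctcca
Rpl22l1 (chr3:28805493-28805522, plus strand): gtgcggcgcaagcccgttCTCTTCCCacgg
Rps2 (chr17:24720048-24720077, plus strand): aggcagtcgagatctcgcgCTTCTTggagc
Rpl12 (chr2:32961697-32961726, plus strand): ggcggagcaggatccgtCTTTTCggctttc
Such a run was found in 28 of 64 members (43.8%) and in 18.5% of all 27025 genes with an entry. This share depends on the window and on the annotated start. Within 2 bases it was 31.25% of members and 8.96% of all genes, and within 10 bases 56.25% and 30.8%. With the window of 5 bases, the run was present in 12 of the 31 members called higher and in 6 of the 12 called lower that had an entry. The marked runs are found on both sides, in Rpl38 and Rps27, which fell, and in Rpl12 and Rps2, which rose. The letters CCGGAAG, the core that ETS factors bind, were present on either strand within the 300 bases around the start in 25 of 64 members (39.1%) and in 9.12% of all genes. GAGGAAG, a core of the kind that Spi1 prefers, was present in 12 members (18.8%) and in 13.5% of all genes. By call, GAGGAAG was present in 2 of the 31 members called higher, 4 of the 12 called lower and 5 of the 19 that did not pass. For CCGGAAG these counts were 10, 6 and 8. Whether the calls differed in these few genes was not tested. The 2 motifs differ in their first letters, so no match counts for both. These matches describe letters in a window and not binding.

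Ribosomal protein genes moved in both directions with TMM scaling, a larger set upward and a smaller set, made up largely of the genes for the smallest proteins, downward, whereas with scaling to the T cell markers they were called in the downward direction only. Of the 82 members that passed the filter on low counts, 43 were higher (52.4%, against 20.8% of all genes tested) and 16 were lower (19.5%, against 24.6%) with DB2313, and 23 did not pass the threshold, while after scaling to the T cell markers 0 were higher (also 0 at an unadjusted p below 0.05) and 77 lower, a scaling with which 1.2% of all genes were higher and 77.3% lower. DESeq2 called 39 higher and 12 lower, and edgeR without DB2313 sample 3 called 54 and 15, where the shares of all genes called are not given here. The median change of the members was 0.15, against 0.019 for all genes tested. Scaled to the T cell markers, the median of the members was -0.43 and that of all genes -0.56, so that the members stayed 0.13 above all genes, as they did with TMM. T cell markers had a median change of 0.59, and only Rpl24, a low count gene, lay above it among the 82 members. With an absolute log2 fold change above 1 as a further condition, no member was higher (1.37% of all genes), the highest change being 0.69 with edgeR and 0.70 with DESeq2, and 3 were lower (5.3% of all genes). The 2 members not tested were Rpl39l, with 3 to 18 counts per library, and Rpl10l, a testis gene with 0 counts in all 6 libraries. The 3 counts that a count of 0 allows come to at most 1.81e-05% of a library.

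**Figure D1:**
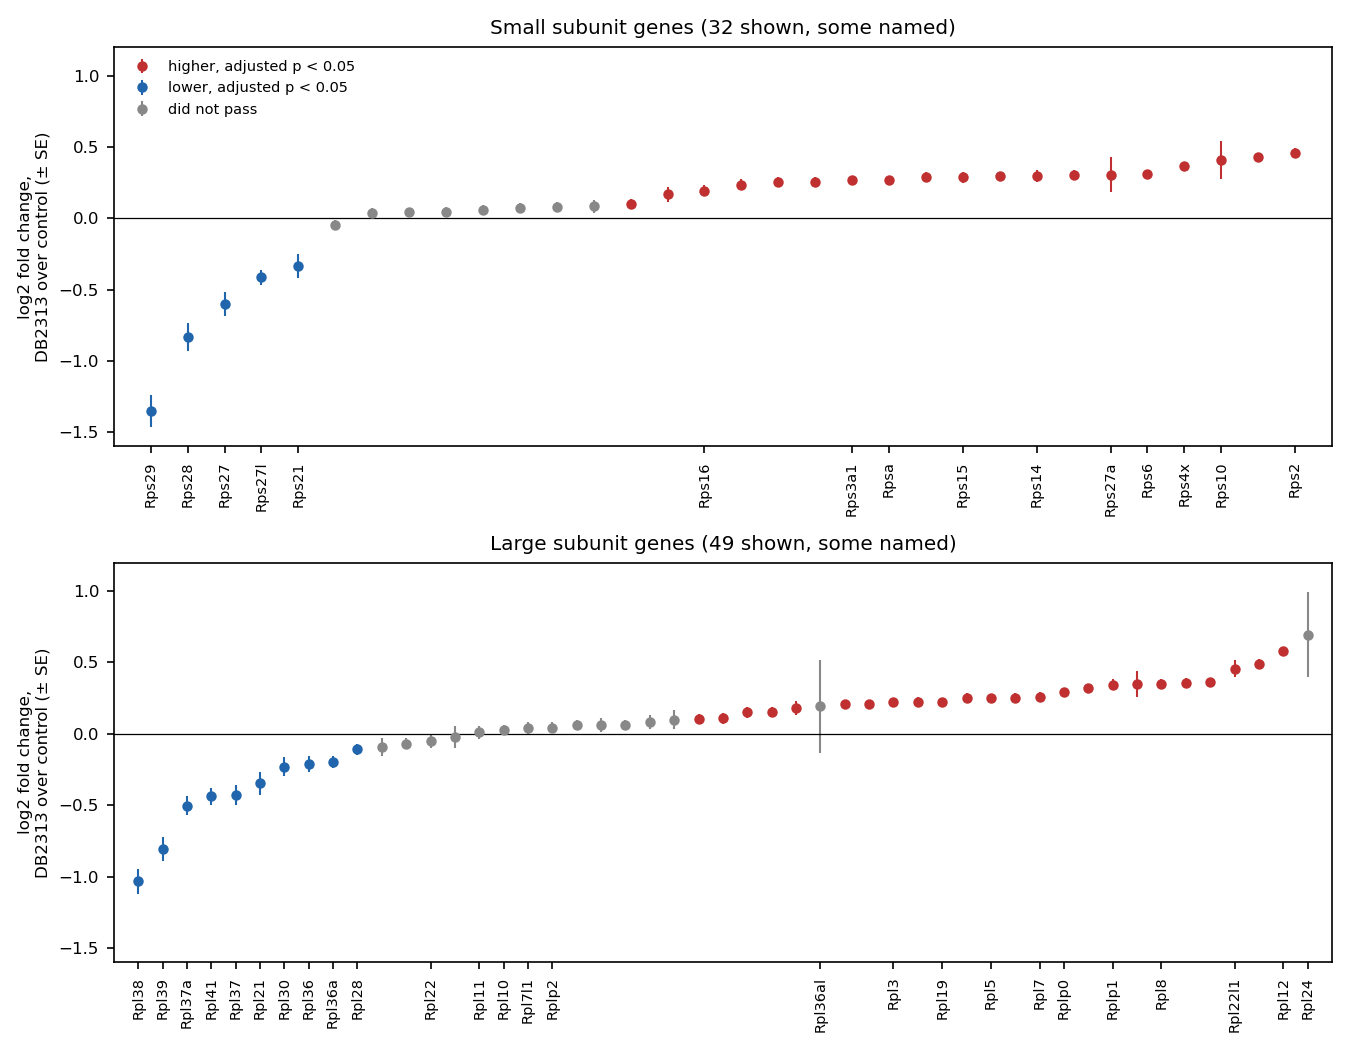
The plot of changes by gene shows the log2 fold change with TMM scaling (DB2313 over control, points, with its SE as a bar, 3 samples per group) for the 32 small subunit genes and 49 large subunit genes. Rpl3l, at -3.56, is left out for scale. Rps29, Rps28, Rpl38 and Rpl39 lie lowest and Rps2 and Rpl12 are, in their subunits, the highest of those that passed. The axis names the genes that the text describes. After scaling to the T cell markers none of the red points would be called higher.

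In the small subunit 19 of 32 genes were higher and 5 lower, and in the large subunit 24 of 50 were higher and 11 lower. These were 59.4% and 15.6% of the small and 48% and 22% of the large subunit genes, where 20.8% of all genes were higher and 24.6% lower, so that the share lower in the large subunit was near that of all genes. The DB2313 values lay above all control values in 38 members and below them in 13, where 25.6% and 27.5% of all genes did so. Of the counted reads, the members together took 6.6%, 6.83% and 6.95% in the control libraries and 8.35%, 8.2% and 7.76% in those of the DB2313 group. All DB2313 libraries were above all control libraries, with a difference of 1.31 percentage points (exact permutation test, two-sided p = 0.1, the smallest that 3 against 3 allow). The mitochondrially encoded genes took 1.51% ± 0.0166 of control and 1.19% ± 0.0236 of DB2313 libraries (SD, n = 3 each). Of 12 such genes 10 were lower and 2 did not pass, with a median change of -0.66. Of the counts on members, the large subunit took 55.7% ± 0.265 in control and 55.3% ± 0.198 in DB2313 libraries (SD, n = 3 each), and the groups did not overlap for the small subunit alone (2.94%, 3.01% and 3.07% in the control libraries and 3.75%, 3.66% and 3.46% in those of the DB2313 group) or for the large subunit alone (3.66%, 3.82% and 3.88% in the control libraries and 4.59%, 4.54% and 4.3% in those of the DB2313 group).

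Levels between genes are compared per length, as CPM per kilobase of the exon length in the table. The highest member was Rplp1, an acidic protein of the stalk that brings elongation factors to the ribosome, at 3682 in control samples and 4678 in DB2313 samples. Next came Rplp0, the base of the stalk, at 1665 and 2039. In the small subunit Rps15, Rps3a1, Rps14 and Rps16 were among the highest 5, and in the large subunit Rplp1 and Rplp0 were followed by Rpl36, Rpl19 and Rpl8. The median of the tested members per length was 407 in the control group. This order depends on the length used, because the exon length of the table joins all transcripts of a gene. Per kilobase of coding sequence instead, Rpl41 ranked first, and 3 genes were among the 10 highest in both orders. Most members were abundant, with 76 averaging at least 100 CPM in the control group.

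All 10 tested members with a coding sequence under 300 nt fell in the DB2313 group, and 9 of them did so without overlap. The eleventh gene of this size, Rpl39l, was not tested. They encode the smallest proteins of both subunits, and this length limit was chosen after their values were seen. Rps29 (chr12:69157722-69159186 on the minus strand), a zinc-binding protein of the small subunit head, stood at 597, 639 and 626 CPM in the control group and at 313, 246 and 170.2 CPM in the DB2313 group. Its change was -1.35 ± 0.11 (SE, adjusted p = 4.45e-10), the largest fall among members above 10 CPM. DB2313 sample 3 had the lowest value and sample 1 the highest within the DB2313 group, and all 3 lay below the controls. Rpl38 (chr11:114668524-114672331 on the plus strand), which is known for its part in the translation of Hox mRNAs in the embryo, was at 321, 329 and 348 CPM in the control group and at 197, 166 and 124 CPM in the DB2313 group. It changed by -1.04 ± 0.088 (SE, adjusted p = 8.51e-10). Samples lay in the same order as for Rps29. Rps28, which sits near the mRNA exit of the small subunit, was at 349, 408 and 387 CPM in the control group and at 265, 217 and 159 CPM in the DB2313 group, a change of -0.84 ± 0.10 (SE, adjusted p = 1.88e-07). Rpl39, which lines the tunnel through which the new protein leaves, was at 374, 434 and 437 CPM in the control group and at 286, 235 and 189 CPM in the DB2313 group, a change of -0.81 ± 0.085 (SE, adjusted p = 2.94e-08). The groups did not overlap in either gene. Rps27, a zinc-binding protein of the small subunit, stood at 841, 851 and 804 CPM in the control group and at 681, 513 and 450.3 CPM in the DB2313 group and changed by -0.60 ± 0.082 (SE, adjusted p = 1.64e-06). Rpl41, the smallest ribosomal protein with a coding sequence of 75 nt, was at 1253, 1294 and 1330.0 CPM in the control group and at 1094, 960.0 and 806 CPM in the DB2313 group. It changed by -0.44 ± 0.062 (SE, adjusted p = 2.91e-06) although its coding sequence is shorter than those of Rps29 and Rpl38. The others of this size were Rpl37a at -0.50 (adjusted p = 1.74e-06), Rpl37 at -0.43 (adjusted p = 1.89e-05), Rps27l at -0.41 (adjusted p = 8.25e-07) and Rps21 at -0.34 (adjusted p = 0.00232). Rps21 was the exception to the separation, with 444, 499 and 434 CPM in the control group and 437, 367 and 286 CPM in the DB2313 group, so that DB2313 sample 1 lay within the control range. All 10 genes also passed in the same direction when any single sample was left out and under the other scalings, and DESeq2 called all but Rps21.

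The change of the members went with their coding length. Of 18 tested members of 300 to under 400 nt, 4 were higher and 3 lower, of 22 of 400 to under 500 nt, 13 and 2, and of 32 of 500 nt or more, 26 and 1, all with TMM scaling. The shares higher were 22.2%, 59.1% and 81.2% and those lower 16.7%, 9.09% and 3.12%, against 20.8% and 24.6% of all genes, to which the genes of 300 to under 400 nt lay near. Of other protein-coding genes at 10 CPM or more, 64 of 265 were higher and 86 lower from 300 to under 400 nt and 82 of 325 and 92 from 400 to under 500 nt, and in the 2 bins from 500 nt on, 25.7% to 26.7% were higher and 29.4% to 29.8% lower. The only long member that fell was Rpl3l. Across the 82 members Spearman's rho was 0.59 between change and coding length and 0.22 between change and the length of the annotated mRNA. Between change and mean level it was 0.47, so the change went with level as well. These points share the 6 libraries and are not independent replicates. The median distance of the members under 300 nt from the control mean, on the log2 scale, was -0.053, 0.037 and 0.033 in the control group and -0.29, -0.63 and -0.81 in the DB2313 group. For members of 500 nt or more it was -0.038, -0.00278 and 0.042 in the control group and 0.26, 0.28 and 0.22 in the DB2313 group. The short members thus differed between the DB2313 libraries, with sample 3 lowest and sample 1 highest. Within the counts on members, those under 300 nt took 8.12%, 8.32% and 8.03% in the control libraries and 5.51%, 4.62% and 4.07% in those of the DB2313 group.

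**Figure D2:**
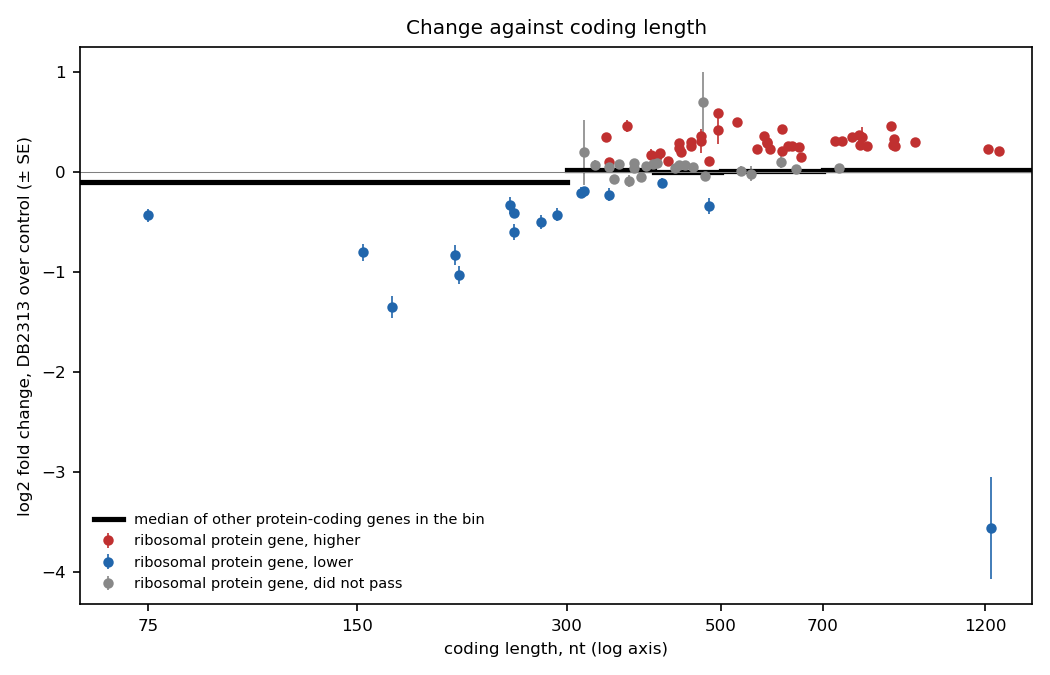
The plot of change against coding length shows each tested member (points, log2 fold change with TMM scaling, SE as a bar) against its coding length in nt on a log axis. Black bars are the medians of other protein-coding genes at 10 CPM or more in each length bin. All members left of 300 nt lie below 0, from -1.35 to -0.34, while the bar for other genes there lies at -0.11. Scaled to the T cell markers, no member is called higher.

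Other genes with short mRNAs moved as well. Among protein-coding genes outside the family at 10 CPM or more and with an annotated mRNA under 500 nt, 22 of 36 were lower and 7 higher, with a median change of -0.41. Their median distance from the control mean was -0.040, 0.032 and 0.014 in the control group and -0.23, -0.40 and -0.58 in the DB2313 group. The 10 members with an mRNA of that length had a median change of -0.38, 8 of them being lower and 1 higher, and their libraries lay at -0.048, 0.030 and 0.019 in the control group and -0.19, -0.36 and -0.62 in the DB2313 group. The libraries fell in the same order in both sets. From 500 to under 600 nt the median was -0.27 in 46 other genes and 0.17 in 11 members. By coding length the 194 other genes under 300 nt had a median of -0.11, 85 lower and 30 higher. Rplp1, with an mRNA of 499 nt, was the short mRNA of the family that rose. With an offset for mRNA length in each library, added after the data were seen, 9 of the 10 members under 300 nt of coding sequence were lower and their median was -0.33 in place of -0.55. Rps29 was then at -1.03 (adjusted p = 3.44e-11) and Rpl38 at -0.77 (adjusted p = 8.33e-11), whereas Rps21 no longer passed, at -0.014 (adjusted p = 0.859). Spearman's rho between change and coding length was 0.45 over the 82 members after the offset. The annotated mRNA need not be the one in the cell, and for Rps20 it was as long as 3706 nt. Beyond this offset, the part of mRNA length in the falls was not tested.

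**Figure D3:**
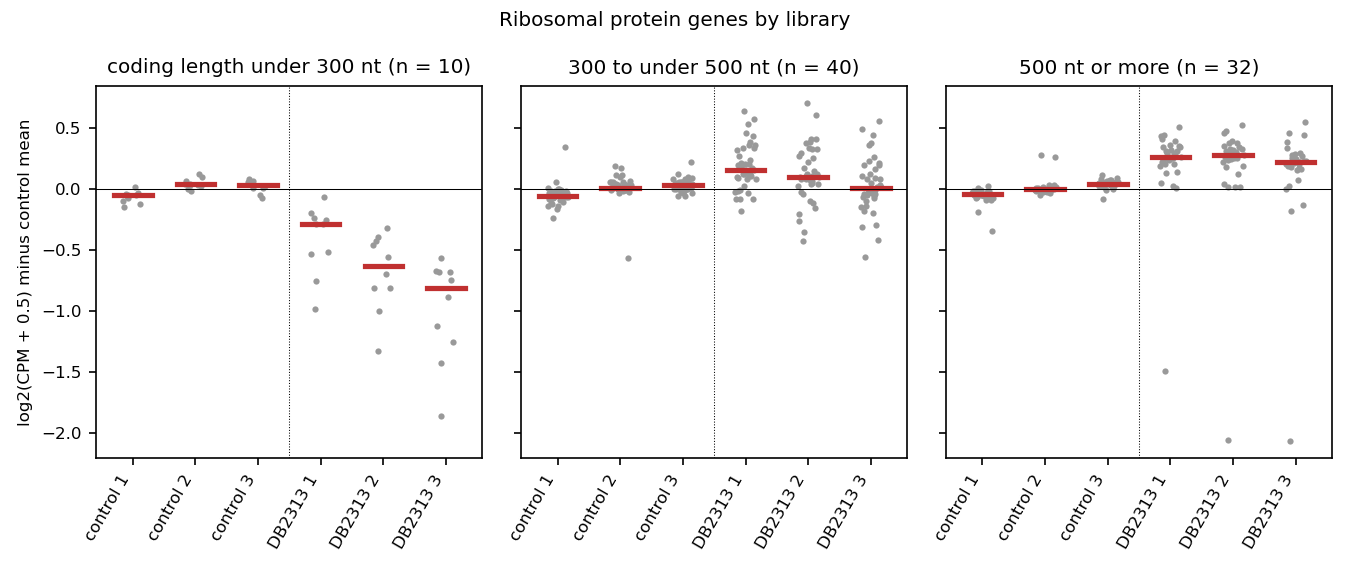
The plot by library shows, for each tested member (grey points), log2(CPM + 0.5) minus its control mean in the 3 control and 3 DB2313 libraries, in 3 panels by coding length, with the median as a red bar (TMM scaling). The median of the members under 300 nt lies at -0.29, -0.63 and -0.81 in the DB2313 libraries and that of the members of 500 nt or more between 0.22 and 0.28. Scaled to the T cell markers, no member is called higher.

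The largest rises, all with TMM scaling and all lost or turned when scaled to the T cell markers, were found in genes for larger proteins. Rpl12 (chr2:32961559-32965345 on the plus strand), which joins the stalk to the large subunit, stood at 959.5, 975 and 974 CPM in the control group and at 1442, 1479.9 and 1428 CPM in the DB2313 group. This was a change of 0.58 ± 0.029 (SE, adjusted p = 6.84e-14), and the groups lay far apart compared with the spread within each. Rps2 (chr17:24718116-24721929 on the plus strand), which lies at the mRNA entry of the small subunit and helps to keep decoding accurate, was at 1315, 1373 and 1463 CPM in the control group and at 1882, 1927 and 1899 CPM in the DB2313 group and changed by 0.46 ± 0.034 (SE, adjusted p = 6.39e-11). Again no DB2313 sample reached down to a control. Rps4x, an X-linked protein of the small subunit, was at 1354, 1397 and 1417 CPM in the control group and at 1846, 1771 and 1757 CPM in the DB2313 group and changed by 0.37 ± 0.03 (SE, adjusted p = 5.83e-10).

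The proteins of the stalk, through which the ribosome recruits elongation factors, did not all pass. Rplp1 was at 1787, 1814 and 1910.2 CPM in the control group and at 2359, 2446 and 2197 CPM in the DB2313 group, a change of 0.35 ± 0.036 (SE, adjusted p = 2.2e-08), and Rplp0 at 2694, 2752 and 2839.5 CPM in the control group and at 3387, 3474 and 3289 CPM in the DB2313 group, a change of 0.29 ± 0.03 (SE, adjusted p = 1.63e-08). Both were higher in all 3 DB2313 samples than in any control. Rplp2, which pairs with Rplp1 in the stalk, had 863, 893 and 929 CPM in the control group and 911, 975 and 881 CPM in the DB2313 group, with overlapping groups and a change of 0.043 ± 0.037 (SE, adjusted p = 0.36). Rpsa, also known as the laminin receptor, rose from 2532 ± 72.9 to 3046 ± 73.1 CPM (SD, n = 3 each), by 0.27 ± 0.03 (SE, adjusted p = 7.63e-08). Among the other genes of high level per length, Rpl8, near the peptidyl transferase centre, changed by 0.35 (adjusted p = 7.87e-09), Rpl19 by 0.22 (adjusted p = 1.61e-06), Rps14 by 0.30 (adjusted p = 2.18e-06), Rps15 by 0.29 (adjusted p = 1.98e-06), Rps3a1 by 0.27 (adjusted p = 1.03e-07) and Rps16 by 0.19 (adjusted p = 0.000326).

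Several members are known for roles besides translation. Rpl5 and Rpl11 form, with the 5S RNA, the particle that binds Mdm2 and stabilises p53 when ribosome assembly is disturbed. Rpl5 was at 1119, 1139 and 1118 CPM in the control group and at 1347, 1333 and 1342 CPM in the DB2313 group, a change of 0.25 ± 0.029 (SE, adjusted p = 1.05e-07). Rpl11 was at 789, 833 and 848 CPM in the control group and at 905, 831 and 751 CPM in the DB2313 group, with overlapping groups and a change of 0.010 ± 0.046 (SE, adjusted p = 0.878). Whether the 2 differed in their change was not tested. Rps6, the substrate of the S6 kinases downstream of mTOR, stood at 1341, 1351 and 1376 CPM in the control group and at 1683, 1724 and 1635 CPM in the DB2313 group and changed by 0.31 ± 0.03 (SE, adjusted p = 7.29e-09). Rps27a and Fau are made as fusions, with ubiquitin and with a ubiquitin-like protein. Rps27a had 651, 346 and 596 CPM in the control group and 691, 680.1 and 595 CPM in the DB2313 group, where control sample 2 lay far below the others. Its change of 0.30 ± 0.12 (SE, adjusted p = 0.0475) became 0.073 (adjusted p = 0.318) without that sample, and it was also lost without DB2313 sample 1, at 0.26 (adjusted p = 0.142), or sample 2, at 0.28 (adjusted p = 0.108). Fau, outside the name rule, changed by 0.11 ± 0.043 (SE, adjusted p = 0.0444), with overlapping groups, and did not pass without control sample 1 or 2 or DB2313 sample 1 or 2, at 0.063 to 0.11 (adjusted p = 0.0978 to 0.253). DESeq2 called neither Rps27a nor Fau. Rack1, a scaffold on the small subunit that binds protein kinase C, was at 1369, 1408 and 1475 CPM in the control group and at 1749, 1806 and 1762 CPM in the DB2313 group, a change of 0.32 ± 0.031 (SE, adjusted p = 8.88e-09).

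Of the 6 other members that were lower, 1 was long and very low. Rpl3l, which replaces Rpl3 in heart and skeletal muscle, had 31, 30 and 33 counts in the control libraries and 6, 1 and 1 in the DB2313 libraries. Summed over the libraries, the level was 11.5 times higher in the control group, with a 95% counting interval (exact binomial) of 5.6 to 27.4. The test gave -3.56 ± 0.51 (SE, adjusted p = 3.61e-06). Rpl36, with 508, 534 and 528 CPM in the control group and 495, 469 and 392 CPM in the DB2313 group, changed by -0.21 ± 0.053 (SE, adjusted p = 0.0023), and the X-linked Rpl36a, with 327, 325 and 326 CPM in the control group and 307, 284 and 262 CPM in the DB2313 group, by -0.20 ± 0.043 (SE, adjusted p = 0.000531). Both were small differences without overlap, and both turned with the offset for mRNA length, to 0.13 and 0.050. Rpl30 had overlapping groups and a change of -0.23 ± 0.065 (SE, adjusted p = 0.00539), which was -0.17 (adjusted p = 0.075) without control sample 2 and -0.17 (adjusted p = 0.0551) without control sample 3. Rpl28 overlaps Ube2s on the other strand and changed by -0.11 ± 0.042 (SE, adjusted p = 0.0345), which was lost when control sample 2 or 3 or DB2313 sample 2 or 3 was left out, with values of -0.11 to -0.065 and adjusted p of 0.0608 to 0.234. DESeq2 did not call Rpl36 or Rpl30, and library size scaling ended the calls of all 3.

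Ribosomal protein genes have many processed pseudogenes, and reads can be split between near-identical copies. The table lists 296 pseudogenes named after 60 members, which took 0.262% ± 0.0128 of control and 0.351% ± 0.00371 of DB2313 libraries (SD, n = 3 each). In 12 members they held over 10% of the summed counts of gene and pseudogenes. For Rps10 they held 97.6%, and the gene itself had only 6.26, 7.91 and 6.78 CPM in the control group and 9.74, 8.91 and 9.18 CPM in the DB2313 group. Its change of 0.41 ± 0.13 (SE, adjusted p = 0.0148) was 0.34 (adjusted p = 0.0785) without control sample 1, and 0.47 (adjusted p = 1.49e-09) with the pseudogene counts added. Rpl21 was at 223, 276 and 233 CPM in the control group and at 229, 181 and 165 CPM in the DB2313 group and changed by -0.35 ± 0.08 (SE, adjusted p = 0.00104). Its pseudogenes held 54.2% of the counts, and with them the change was 0.14 (adjusted p = 0.0043), in the other direction, so the fall of Rpl21 is uncertain. DESeq2 did not call Rpl21 or Rps10 without the added counts. Rpl17 had a change of -0.020 ± 0.078 (SE, adjusted p = 0.856), with 49.1% on pseudogenes. Rpl24, which reaches across to the small subunit, stood at 1.39, 1.28 and 1.28 CPM in the control group and at 2.33, 2.46 and 1.63 CPM in the DB2313 group, far below its neighbours in the ribosome. Its change of 0.69 ± 0.30 (SE, adjusted p = 0.0613) did not pass, but without DB2313 sample 3 it was 0.86 (adjusted p = 0.031). Of these, Rps10 shares its position with a readthrough gene on the same strand.

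Some ribosomal proteins have a paralog that can take their place, and the ratio of each paralog to its partner was compared over the libraries for 6 pairs. Rpl10l had no counts, and its partner Rpl10 changed by 0.030 (adjusted p = 0.431). Rpl22l1 can replace Rpl22, a protein needed for the development of αβ T cells. It was at 44.7, 50.5 and 44.7 CPM in the control group and at 67.6, 60.9 and 63.5 CPM in the DB2313 group, a change of 0.46 ± 0.062 (SE, adjusted p = 1.69e-06), while Rpl22 was at 367, 421 and 426 CPM in the control group and at 396, 412 and 365 CPM in the DB2313 group, a change of -0.049 ± 0.048 (SE, adjusted p = 0.428). The log2 ratio was -3.04, -3.06 and -3.25 in the control group and -2.55, -2.75 and -2.52 in the DB2313 group. Paralog counts thus went from 11.5% to 16.4% of those of Rpl22, with no overlap between the groups. For Rpl7l1, which changed by 0.038 (adjusted p = 0.486) while Rpl7 changed by 0.26 (adjusted p = 9.09e-07), the log2 ratio was -3.44, -3.51 and -3.45 in the control group and -3.71, -3.74 and -3.62 in the DB2313 group. For Rpl3l it was -9.66, -9.68 and -9.50 in the control group and -12.22, -14.29 and -14.29 in the DB2313 group, against Rpl3, which changed by 0.22 (adjusted p = 4.24e-06). These 3 pairs had groups without overlap, and each had p = 0.1 in the exact permutation test, the smallest possible, and 0.2 after Benjamini-Hochberg adjustment over 6 pairs. Rps27l and Rps27 both fell, and their ratio overlapped between the groups, at -2.86, -2.77 and -2.67 in the control group and -2.77, -2.47 and -2.45 in the DB2313 group (exact p = 0.3). Rpl36al, a retrogene of Rpl36a with 19 to 41 counts per library and a change of 0.19 (adjusted p = 0.659), had overlapping ratios (exact p = 0.5), as had Rpl39l (exact p = 0.7). Rpl36al shares 1250 bases with Gm49383 on the same strand, so its count and ratio may not give its level.

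**Figure D4:**
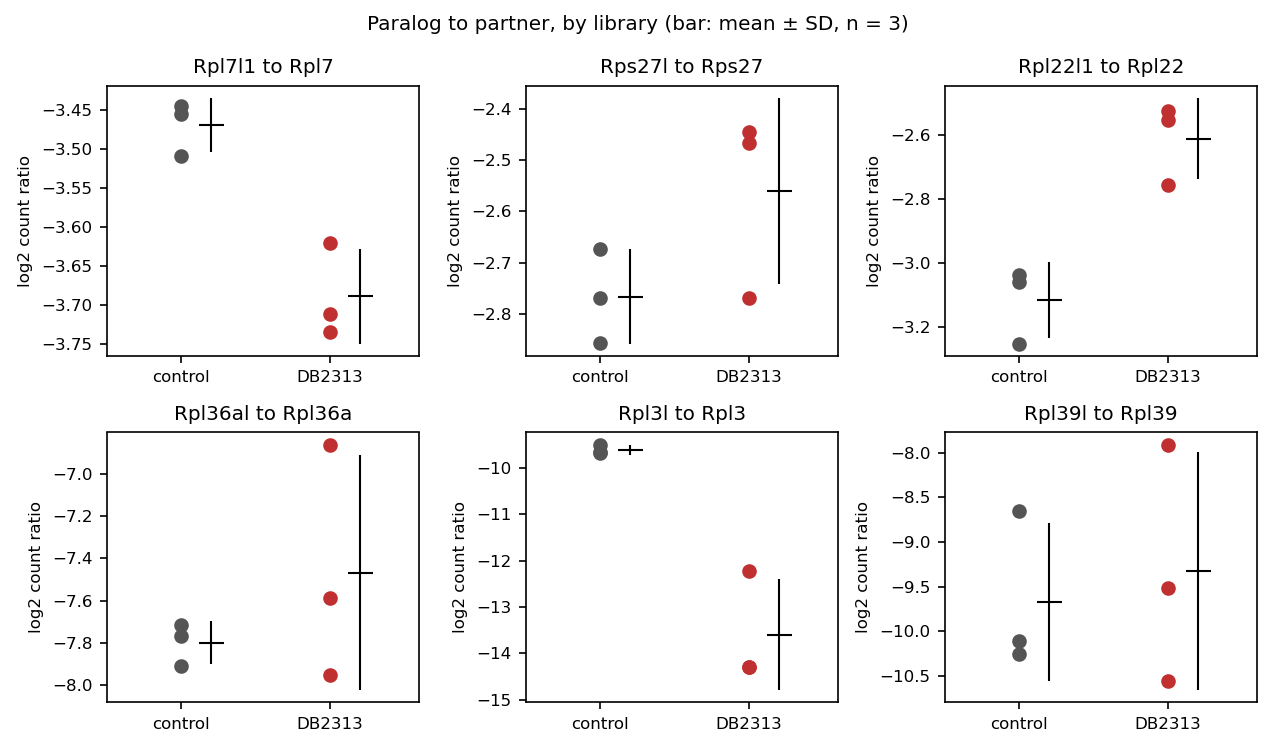
The plot of paralog ratios shows the log2 ratio of the counts of each paralog to its partner in every library (points, 3 per group) with the mean and SD beside them, and each panel has an axis of its own. Rpl22l1 to Rpl22 lies higher in all DB2313 libraries, Rpl7l1 to Rpl7 and Rpl3l to Rpl3 lie lower, and the other pairs overlap.

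Genes that act with the ribosomal proteins were followed by lists. With TMM scaling 93 of 249 tested genes were higher and 26 lower, against 20.8% and 24.6% of all genes, while after scaling to the T cell markers none were higher (also 0 at an unadjusted p below 0.05) and 246 lower, against 1.2% and 77.3% of all genes. DESeq2 gave 73 higher and 23 lower, where the shares of all genes called are not given here. The values below are with TMM scaling, and the share of each list is to be read against the 20.8% higher and 24.6% lower of all genes. In the 59 ribosome biogenesis factors, which process ribosomal RNA and assemble the subunits, 32 were higher and 3 lower (54.2% and 5.08%), with a median of 0.16. The largest changes past the threshold were Rpf2, which brings the 5S particle to the large subunit, at 0.39 (adjusted p = 0.000591), and Emg1, a methyltransferase of the small subunit RNA, at 0.38 (adjusted p = 2.48e-07), and downward Nop16 at -0.27 (adjusted p = 0.00167) and Heatr1 at -0.22 (adjusted p = 0.000371). Of 19 genes for RNA polymerase I and its factors, 8 were higher (42.1%), led by Polr1e at 0.35 (adjusted p = 0.00435) and Taf1b at 0.32 (adjusted p = 0.00398), and 1 was lower, Polr2k, a subunit shared by the RNA polymerases, at -0.54 (adjusted p = 0.000421). Chaperones of ribosomal proteins had 3 of 7 higher (42.9%) while 4 did not pass, with Tsr2, the chaperone of Rps26, at 0.39 (adjusted p = 0.000529) and Bccip at 0.27 (adjusted p = 0.000493).

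Among 11 genes of the elongation factor list, 6 were higher (54.5%), with Eef1d at 0.25 (adjusted p = 8.24e-06) and Eef1g at 0.24 (adjusted p = 1.07e-06). The list is wider than the factors of the cytosolic ribosome. It counts as higher Eef1e1, a part of the tRNA synthetase complex, at 0.22 (adjusted p = 0.0231). It also holds the mitochondrial factors Tufm and Tsfm, which did not pass, at -0.11 and 0.030. Among 42 initiation factors 15 were higher and 6 lower (35.7% and 14.3%). Eif2b3, a part of the exchange factor for eIF2, was at 0.40 (adjusted p = 0.00404) and Eif5b, which joins the subunits, at 0.30 (adjusted p = 3.3e-06). Eif4e3 was at -0.23 (adjusted p = 0.0105) and Eif4g1, the scaffold of the cap-binding complex, at -0.20 (adjusted p = 3.71e-05). Of 22 other mRNAs known to start with a pyrimidine tract, some of which are also in the lists above, 14 were higher and 2 lower (63.6% and 9.09%). Tpt1 stood at 2715, 2748 and 2823 CPM in the control group and at 3420.1, 3516 and 3401 CPM in the DB2313 group, a change of 0.32 ± 0.028 (SE, adjusted p = 1.47e-09). Vim, the intermediate filament protein vimentin, was at 2323, 2321 and 2350.2 CPM in the control group and at 1407, 1467 and 1431 CPM in the DB2313 group, a change of -0.70 ± 0.029 (SE, adjusted p = 1.29e-15), and Pabpc1 changed by -0.17 (adjusted p = 0.000288). Of 77 mitochondrial ribosomal proteins, which build the separate ribosome of the mitochondrion, 19 were higher and 5 lower (24.7% and 6.49%, the share higher being near the 20.8% of all genes), a median of 0.087, with Mrps5 at 0.42 (adjusted p = 7.04e-06) and Mrps34 at 0.41 (adjusted p = 6e-05) at one end and Mrps21 at -0.56 (adjusted p = 2.42e-06) and Mrpl52 at -0.54 (adjusted p = 2.25e-07) at the other.

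Of 25 tested regulators of growth and translation, 9 were lower, 5 higher and 11 did not pass. With 20% higher and 36% lower against 20.8% and 24.6% of all genes, the share higher was near that of all genes. Mtor, the kinase that promotes the translation of these mRNAs, was at 75.2, 73.6 and 68.4 CPM in the control group and at 55.2, 57.7 and 65.3 CPM in the DB2313 group, a change of -0.29 ± 0.061 (SE, adjusted p = 0.00045). Larp1, which binds the pyrimidine tract, changed by -0.16 ± 0.04 (SE, adjusted p = 0.00189), which no longer passed with library size scaling, at -0.067. Myc, which drives transcription of ribosomal protein genes, was at 73.7, 75.1 and 73.1 CPM in the control group and at 83.3, 87.5 and 81.3 CPM in the DB2313 group, a change of 0.18 ± 0.047 (SE, adjusted p = 0.00262). Rptor, the scaffold of mTOR complex 1, fell by 0.47 on the log2 scale (adjusted p = 7.84e-08). The sestrins, which restrain this complex, went in opposite directions, with Sesn1 at 0.62 (adjusted p = 1.82e-10) and Sesn2 at -0.79 (adjusted p = 2.9e-11). Other genes of the list that restrain the complex were lower too. Tsc1 was at -0.29 (adjusted p = 0.000186) and Tsc2 at -0.23 (adjusted p = 0.00284). Deptor, at 8.92 CPM on average in the control group, was at -1.02 (adjusted p = 7.58e-06). Akt1s1 did not pass, at -0.029 (adjusted p = 0.745). The falls were thus not confined to the parts that promote its activity. Eef2k, which slows elongation, was at 0.32 (adjusted p = 0.000552). Of 20 proliferation genes 11 were higher and 1 lower.

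**Figure D5:**
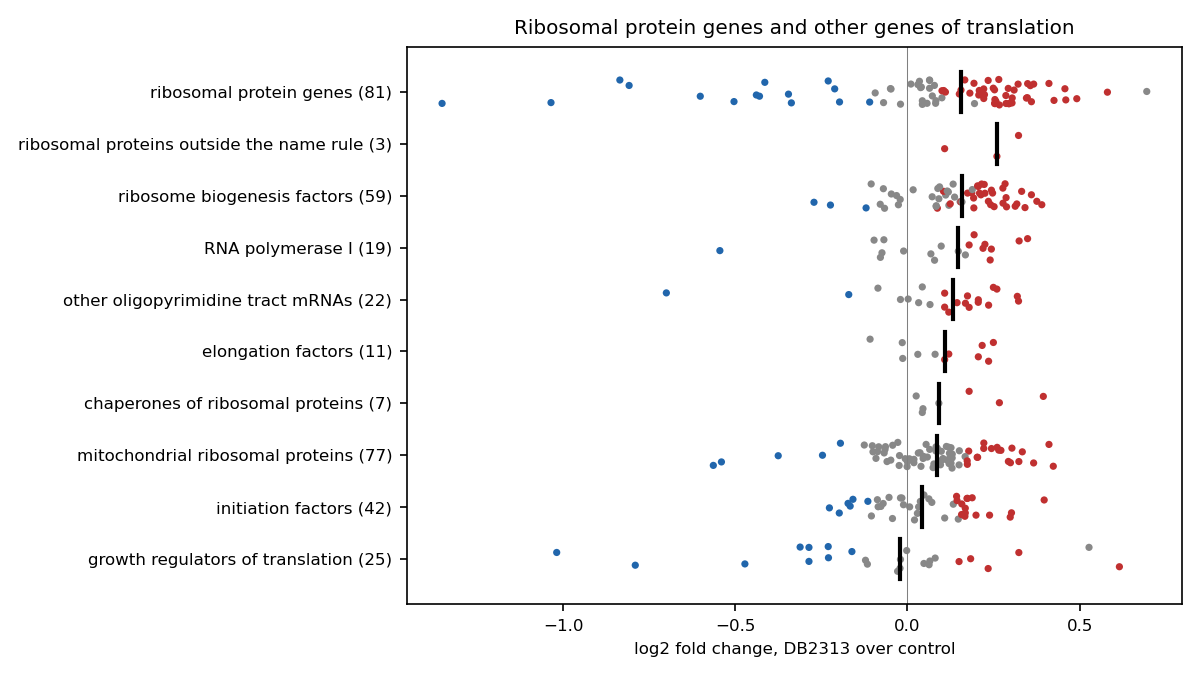
The plot of gene lists shows the log2 fold change with TMM scaling of each tested gene (points, red higher, blue lower, grey not passed) for 81 ribosomal protein genes, without Rpl3l, and 9 lists of genes of translation, with the number of genes in brackets and the median as a black bar. The ribosome biogenesis factors have a median of 0.16 and the growth regulators one of -0.022. After scaling to the T cell markers no gene of these lists or of the members is called higher, as is the case for all but 1.2% of all genes.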

How the data were processed

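RNA of mouse CD8T cells after coculture was sequenced in 6 samples, 3 per group. The authors deposited raw read counts per gene, without normalization. Per the labels' processing notes CASAVA 1.8, HISAT2 2.0.5 and featureCounts 1.5.0-p3 were used, whereas the methods of the study name LifeScope. The genome build, the annotation and the use of the strand are not given in the sources used here, so overlapping genes cannot be told apart. Besides Rpl28, this holds for Rps28 with Kank3, Rpl12 with Lrsam1, Rpl5 with Fam69a, Rpl3 with Syngr1 and Rps27a with Clhc1, among others. Gene positions in the table were those of GRCm38 (GENCODE release 21) for 82 of 84 members, and coding and mRNA lengths were taken from 1 representative transcript per gene of that release.

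Samples were grouped by DB2313 from the labels. Counts went through filterByExpr and TMM scaling and then the quasi-likelihood test of edgeR 4.0.16 in R 4.3.3 (glmQLFTest, 3 against 3 with no covariate), with Benjamini-Hochberg adjustment over 14883 genes. The common biological coefficient of variation was 4.67%. Shares and paralog ratios, log2 of counts plus 0.5, were compared by exact permutation tests in scipy 1.17.1. No molecular identifiers are described, and reads can be copies of 1 molecule, so intervals and the floor of 3 counts cover counting error alone. Replicate libraries were no copies of each other, as their chi-square per gene was 2.48 to 3.81. On simulated counts of this comparison with 200 changed genes, edgeR called 46 of 67 at an absolute log2 change of 0.5, 60 of 67 at 1 and 64 of 66 at 2, and 6 unchanged genes of 14892 tested. Every simulated gene had the common coefficient of variation, and in the data 3096 genes were called higher and 3667 lower. The simulated rates are thus not the error rates of these data.

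The members and lists were chosen with earlier results of these data known. The lists cover translation, ribosome production and growth control, and markers of T cells, macrophages, neutrophils, dendritic cells, B cells, erythroid cells, proliferation and mitochondrial transcripts. Named are, per subunit, the 5 members of highest level per length and the 4 largest rises and falls, every paralog with its partner, Rpsa and the stalk, Rpl5, Rpl11, Rps6, Rps27a, Fau and Rack1, each member that was lower, the 2 largest rises and falls per list with at least 10 CPM, and Myc, Larp1 and Mtor. Some genes that this rule names are not reported here. The other genes given as examples were chosen after their values were seen. The alternatives were DESeq2 1.42.0, scaling by library size, upper quartile, TMM without the members or T cell markers, another filter (none, or 10 counts in each sample), protein-coding genes alone, a replicate block, pseudogene counts added, a fold threshold and leaving out each sample. The offset for mRNA length, a loess curve per library over the other protein-coding genes, was added after seeing the data.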

Additional observations from a re-analysis of the deposited data

How the results depend on the processing

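Scaling to the T cell markers shifts all genes together, so that their median change went from 0.019 to -0.56, and the members stayed 0.13 above it. The signs below follow from that shift. With this scaling 0 members were higher and 77 lower with a median of -0.43, and 0 list genes were higher and 246 lower. The fold changes of the named genes that turned there were Rpl11 -0.57, Rpl10 -0.55, Rpl7l1 -0.55, Rplp2 -0.54, Fau -0.48, Myc -0.40, Rps16 -0.39, Rpl3 -0.36, Rpl19 -0.36, Eef1g -0.35, Eef1d -0.34, Rpl5 -0.33, Rpl7 -0.33, Rps3a1 -0.32, Rpsa -0.32, Bccip -0.32, Rps15 -0.30, Rplp0 -0.29, Rps14 -0.29, Eif5b -0.28, Rps27a -0.28, Rps6 -0.28, Tpt1 -0.27, Rack1 -0.26, Eef2k -0.26, Taf1b -0.26, Rplp1 -0.24, Rpl8 -0.24, Polr1e -0.24, Rps4x -0.22, Emg1 -0.21, Rpf2 -0.19, Tsr2 -0.19, Eif2b3 -0.19, Mrps34 -0.17, Rps10 -0.17, Mrps5 -0.16, Rpl22l1 -0.13, Rps2 -0.12, Rpl12 -0.00416. The median of the members was 0.25 with library size scaling, 0.22 with upper quartile scaling and 0.23 with the offset for mRNA length, and the medians of all genes were then 0.11, 0.083 and 0.084. Library size scaling gave 59 higher and 13 lower members, upper quartile scaling 57 and 15, and the offset 61 and 13. Library size scaling gave 150 higher and 14 lower list genes. The members stayed 0.13 above all genes with library size and upper quartile scaling and 0.15 with the offset. The shares of all genes called with these settings are not given here, so counts larger than with TMM are not a larger result for the members. With the fold threshold, 0 members were higher and 3 lower. With the offset, Rpl36 was at 0.13 and Rpl36a at 0.050. With pseudogene counts added, Rpl21 was at 0.14. The difference in the log2 ratio of Rpl39l to Rpl39, 0.35, was between -0.36 and 0.96 with 1 sample left out. The cause of the changes other than those with the T cell markers was not tested.

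Leaving out 1 sample at a time gave 38 to 54 higher and 14 to 17 lower members, a median of 0.11 to 0.18, a difference in share of 1.19 to 1.48 percentage points, and 75 to 93 higher and 23 to 26 lower list genes. The shares of all genes called are not given here for these fits or for the replicate block. Same-numbered samples did not deviate together, with correlations of -0.011 to 0.00253, and with a replicate block 41 members were higher and 15 lower. The block ended the calls of Rpl28 and Fau among the named genes. Apart from the T cell marker scaling and the length offset, 1050 of 1094 values of named genes held their direction and call, 33 lost the threshold, 10 gained it and 1 turned. DESeq2 lost Rps21, Rpl21, Rpl30, Rpl36, Rps27a, Rps10 and Fau. Library size scaling lost Rpl28, Rpl30, Rpl36, Eif4e3, Larp1 and Pabpc1. Few counts limit what can be said of Rpl3l, Rpl24, Rpl36al and Rpl39l. For Rpl36al, the part of its overlap with Gm49383 on the same strand in these few counts was not tested.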
